A study of Mus musculus with 12 samples.

Results

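The 21 genes described here are those transcribed from the mitochondrial genome. They are every row of the P3 expression table whose symbol starts with mt-, 21 of 31091 rows, and by the table's gene class they fall into 13 protein-coding, 2 ribosomal RNA and 6 transfer RNA genes. The libraries came from granule cell progenitors, the dividing cells of the developing cerebellum that give rise to granule neurons. They were isolated at postnatal day 3 from control mice, whose genotype is given as WT, and from mice in which Znhit3 was conditionally knocked out (cKO), with 3 libraries in each group. Znhit3 encodes a zinc finger protein of the nuclear factors that help assemble small nucleolar ribonucleoproteins. The series has 12 samples in all, and the 6 from postnatal day 6 were not analysed here. The design text places the comparison in a study of cerebral atrophy in mice deficient in Znhit3. The labels name neither the Cre line nor the cells it acts in, and they do not say whether the libraries of a group came from separate animals, so the tests measure the spread between these libraries, which may be technical.

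The circular mitochondrial genome is transcribed from both strands, called heavy and light, into long precursors that span many genes. Transfer RNAs lie between most of the other genes, and their excision frees the ribosomal RNAs and messenger RNAs. The messenger RNAs encode subunits of respiratory chain complexes I, III and IV and of the ATP synthase, complex V, while all proteins that copy, transcribe and translate this genome are encoded in the nucleus. Most mouse mitochondrial messenger RNAs carry a short poly(A) tail, but mature transfer RNAs do not carry one. The libraries were made from RNA selected on oligo(dT), and values are in FPKM, fragments counted per kilobase of gene, scaled to the total of the library.

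The annotation of chrM in GENCODE M21 (GRCm38) holds 37 genes, 22 of them for transfer RNA. The start and end of 21 of 21 members in the table were the same as there. The 16 chrM genes outside the table were all transfer RNA genes and are not analysed here. Of the members, 6 lie on the minus strand of the reference: mt-Nd6, mt-Tn, mt-Tc, mt-Ts1, mt-Te and mt-Tp. Gene sequences are shown first because several of these genes share long stretches with pseudogenes in the nuclear genome, and reads from such a stretch cannot be assigned by sequence. All are from the GENCODE M21 transcripts, written 5′ to 3′ on the gene's own strand. The first pair holds the first 150 bases of mt-Nd3 (chrM:9459-9608, plus strand), a subunit of complex I, and of its chromosome 1 copy Gm28438. The capital marks their single difference, T3C, with positions counted from 1 at the 5′ end of mt-Nd3.
mt-Nd3: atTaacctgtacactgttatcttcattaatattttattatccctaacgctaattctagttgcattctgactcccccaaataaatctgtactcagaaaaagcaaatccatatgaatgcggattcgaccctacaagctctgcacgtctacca
Gm28438: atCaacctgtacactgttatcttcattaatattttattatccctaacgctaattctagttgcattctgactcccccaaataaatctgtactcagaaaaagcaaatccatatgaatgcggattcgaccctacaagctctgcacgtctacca
The next set holds the first 150 bases of mt-Co2 (chrM:7013-7162, plus strand), a core subunit of complex IV, with a chromosome 1 copy, Gm28661, and a chromosome 2 copy, Gm13341. Gm28661 had no difference from mt-Co2 in these bases. Gm13341 had 2, C25T and G57A, which are in capitals.
mt-Co2: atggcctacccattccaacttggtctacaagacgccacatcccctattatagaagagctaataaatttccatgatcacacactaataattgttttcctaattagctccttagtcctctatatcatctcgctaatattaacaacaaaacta
Gm28661: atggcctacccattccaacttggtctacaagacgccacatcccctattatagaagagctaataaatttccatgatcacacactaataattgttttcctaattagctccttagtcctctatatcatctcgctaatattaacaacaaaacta
Gm13341: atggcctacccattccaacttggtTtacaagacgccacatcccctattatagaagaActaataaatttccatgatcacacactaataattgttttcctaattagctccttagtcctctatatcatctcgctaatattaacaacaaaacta
Neighbouring genes also overlap within chrM. The ATP synthase genes mt-Atp8 and mt-Atp6 share 43 bases (chrM:7927-7969, plus strand), shown with the start codon of mt-Atp6 in capitals.
mt-Atp8/mt-Atp6: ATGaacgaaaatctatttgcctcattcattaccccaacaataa
The end of mt-Nd4l and the start of mt-Nd4 share 7 bases, and mt-Nd5 and mt-Nd6 share 14 bases on opposite strands. The sources used here do not state whether strand was used in counting, so reads of the shared bases cannot be told apart. Finally, a pair of transfer RNA genes is shown whose values lay far apart in the table, with the anticodons in capitals: mt-Tp for proline (chrM:15356-15422, minus strand) and mt-Te for glutamate (chrM:14071-14139, minus strand).
mt-Tp: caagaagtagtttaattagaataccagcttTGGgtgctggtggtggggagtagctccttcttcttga
mt-Te: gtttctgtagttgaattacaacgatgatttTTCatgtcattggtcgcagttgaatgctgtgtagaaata

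The targeted gene was read first. Znhit3 measured 9.15, 8.62 and 8.58 FPKM in control replicates 1 to 3 and 4.03, 4.01 and 4.57 FPKM in cKO replicates 1 to 3. The cKO mean was 47.8% of control, which on the log2 scale is -0.91 ± 0.06 (SE), adjusted p 0.00024 (limma, Benjamini-Hochberg over all genes tested). An exact permutation test gave 0.1, the smallest p that 3 against 3 libraries allow. Each library held between 29119803 and 52961445 counted reads. At these depths, 3 reads along 1 kb are worth 0.057 to 0.10 FPKM, a limit that covers counting error only. Markers of granule cell progenitors were present in all libraries, with summed levels of 1024 to 1111 FPKM in control and 822 to 875 FPKM in cKO. Here and below, genes that rose or fell are those called by limma at an adjusted p under 0.05. Of all genes tested, 13.4% were called higher in cKO and 5.74% lower. Of 8 such markers, 3 fell in cKO (Barhl1, Pax6 and Mfap4) and none rose, with a median log2 difference of -0.18. All 5 markers of GABAergic interneurons and all 5 of endothelium rose, with medians of 0.73 and 0.70. Their summed levels were 21.6 to 24.6 against 38.2 to 42.7 FPKM and 109 to 121 against 195 to 212 FPKM. Of 4 markers of choroid plexus and ependyma 3 fell, with summed levels of 1339 to 1424 FPKM in control and 634 to 711 FPKM in cKO. All 4 markers of pericytes and all 4 of microglia also rose, and the remaining cell types are given with the processing. In bulk libraries, fewer cells of a type and less RNA per cell cannot be told apart, and the part of cell composition in the values below was not tested.

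Mitochondrially encoded transcripts took close to the same part of both groups. They held 2.68%, 2.31% and 2.83% of the counted reads in control replicates 1 to 3 and 2.96%, 2.57% and 2.50% in cKO replicates 1 to 3. The means were 2.61% ± 0.27 (SD, n = 3) and 2.68% ± 0.25 (SD, n = 3), a difference of 0.07 percentage points with a standard error of 0.21. The groups overlapped, and the difference was smaller than the spread within either group. Its sign rested on single libraries: it was -0.08 percentage points without control replicate 2 and -0.07 without cKO replicate 1. The lowest share of each group was in its shallowest library, control replicate 2 and cKO replicate 3. No p-value is given for this share or for the other sums over members below.

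**Figure D1:**
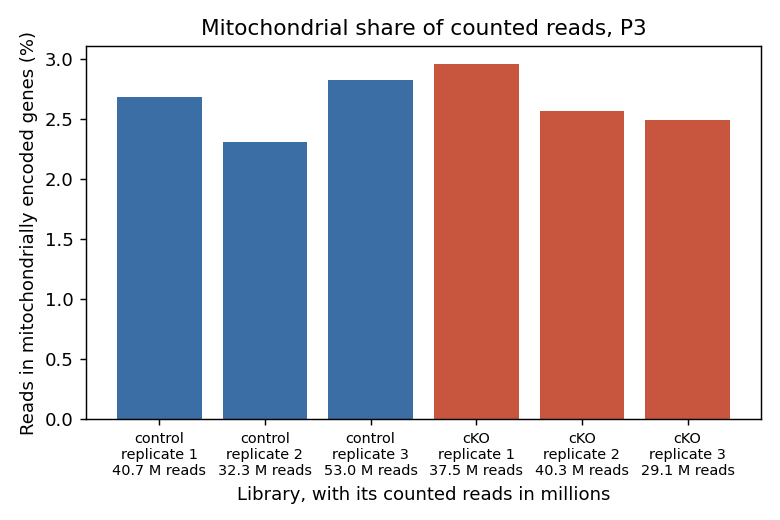
Share of counted reads from the 21 mitochondrially encoded genes, in percent, with 1 bar for each of the 6 libraries, labelled with its counted reads. The control bars reach 2.31% to 2.83% and the cKO bars 2.50% to 2.96%, and the groups overlap.

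The members spanned a wide range of levels, led by mt-Co1, which encodes the catalytic subunit of complex IV. On the FPKM scale, which is per length, mt-Co1 averaged 6655 ± 530 (SD, n = 3) in control libraries. It was followed by mt-Nd1, a complex I subunit, at 3932 ± 599, and mt-Cytb, the cytochrome b of complex III, at 3565 ± 381. The control ranges of mt-Nd1 and mt-Cytb overlapped, while mt-Co1 stood apart from both. The next levels were those of complex I subunits, with mt-Nd2 at 1590.1, mt-Nd5 at 1422, mt-Nd4 at 1163 and mt-Nd6 at 1028 FPKM. Of these neighbours, mt-Nd2 and mt-Nd5 overlapped, as did mt-Nd4 and mt-Nd6. Then came mt-Rnr2 at 470.0, mt-Tp at 349, mt-Co2 at 318, mt-Co3 at 247, mt-Atp6 at 216 and mt-Rnr1 at 212 FPKM. Among them mt-Tp overlapped mt-Co2, and mt-Atp6 overlapped both mt-Co3 and mt-Rnr1. The lowest protein-coding genes were mt-Nd4l at 73.4, mt-Nd3 at 38.4 and mt-Atp8 at 37.2 FPKM, and the ranges of the last 2 overlapped. mt-Atp8 shares a messenger RNA with mt-Atp6, and mt-Nd4l shares bases with mt-Nd4. These are therefore values of gene rows, not levels of separate messenger RNAs. How much ribosomal and transfer RNA the oligo(dT) selection kept was not measured. The ranks of those rows beside messenger RNAs are thus not ranks of abundance in the cells. The other 5 transfer RNAs were between 0.30 and 1.54 FPKM. In cKO libraries 15 of 21 members kept their rank, and 6 traded places with a neighbour: mt-Nd4 with mt-Nd6, mt-Tp with mt-Co2, and mt-Atp6 with mt-Rnr1. Each of these 3 pairs already overlapped in control libraries. This order is that of the rows as deposited, which leaves out reads counted in nuclear copies of some members, described below. With the copies' reads added, mt-Atp6 averaged 738, mt-Co2 702 and mt-Co3 577 FPKM in control, all above mt-Rnr2.

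**Figure D2:**
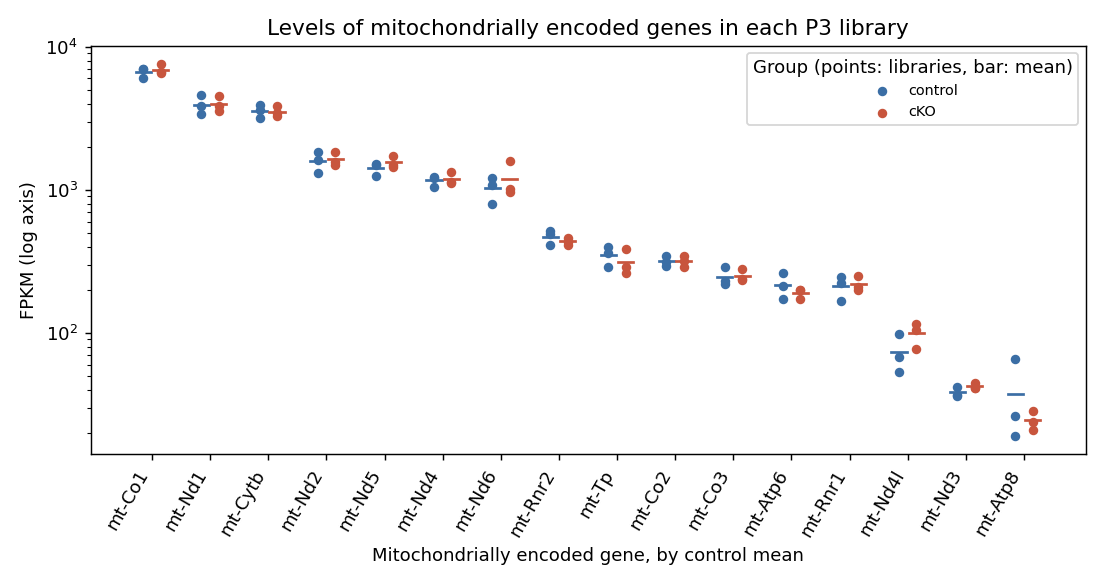
FPKM on a log axis of the 16 members with at least 20 reads in every library, ordered by control mean, with a point for each control and cKO library and a bar at the group mean. The levels run from mt-Co1 at 6042 to 7514 FPKM down to mt-Atp8 at 19.1 to 66.0 FPKM, and the groups overlap at each gene.

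Of the 21 members, 17 had a mean of at least 1 FPKM and entered the fit, which tested 13538 genes, and limma called 0 of them at an adjusted p under 0.05. The same fit called 19.1% of all genes tested. None of the 17 had an unadjusted p under 0.05 either. The 3 control and 3 cKO libraries overlapped at every member, tested or not, while 40.5% of all genes tested had groups that did not overlap. Fitted with voom on the reads recovered from the FPKM values, again 0 members were called, 3 had an unadjusted p under 0.05, and 26.4% of all genes were called. The authors' deposited table also called 0 members, with 0 at an unadjusted p under 0.05. The smallest adjusted p among members in the authors' deposited table was 0.26, for mt-Tp. The limma estimates were above 0 for 10 members and below 0 for 7, with a median log2 difference of 0.02 beside 0.03 over all genes tested. The smallest adjusted p was 0.15, for mt-Nd3. A p above the threshold does not show that levels were equal, so the 95% interval of each difference is given with the members below. Which members lay above or below 0 depended on single libraries: without control replicate 2, and likewise without cKO replicate 1, 6 of 17 had the other sign.

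**Figure D3:**
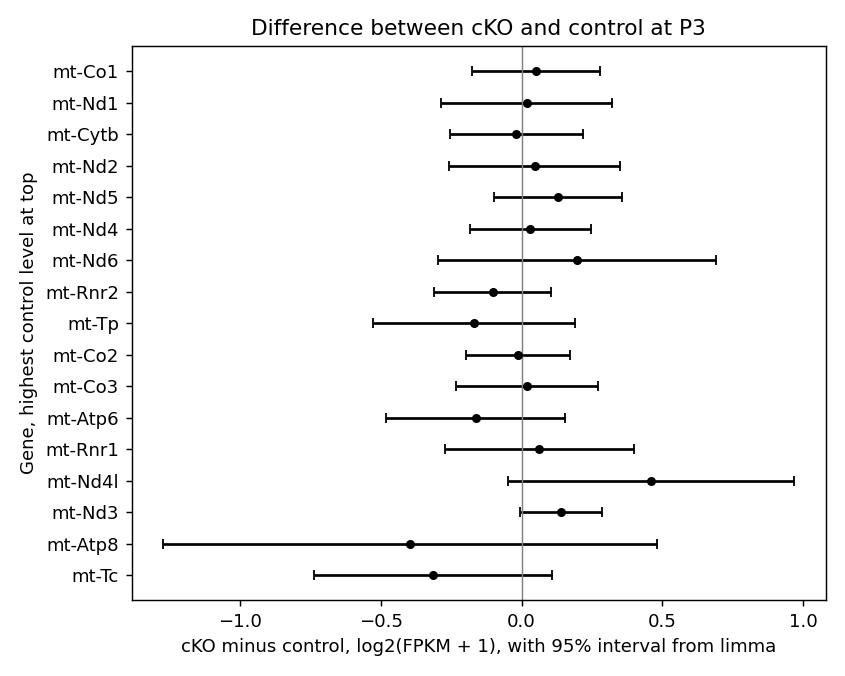
Difference between cKO and control on the log2(FPKM + 1) scale for the 17 tested members, ordered by control level, as the limma estimate with its 95% interval. Every interval includes 0, with mt-Nd4l at 0.46 and mt-Atp8 at -0.40 as the highest and lowest estimates.

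Both ribosomal RNAs overlapped between groups. Their values and shares are those of RNA kept by the oligo(dT) selection, not of all ribosomal RNA in the cells. For mt-Rnr1, the 12S RNA of the small mitochondrial ribosomal subunit (chrM:70-1024), the values were 222, 166 and 247 FPKM in control and 251, 209 and 199 FPKM in cKO. Its log2 difference was 0.06, with an interval of -0.27 to 0.40 and an adjusted p of 0.78 (limma). For mt-Rnr2, the 16S RNA of the large subunit (chrM:1094-2675), they were 487, 408 and 514 FPKM in control and 464, 414 and 431 FPKM in cKO. The lowest library of both genes in control was replicate 2. The log2 difference of mt-Rnr2 was -0.10, with an interval of -0.31 to 0.11. As a share of mitochondrial reads, the ribosomal RNAs together held 3.66%, 3.49% and 3.71% in control and 3.29%, 3.32% and 3.49% in cKO. These shares touched at their ends, with means of 3.62% ± 0.12 and 3.37% ± 0.11 (SD, n = 3). The protein-coding share was the mirror of this, 96.3% ± 0.12 in control and 96.6% ± 0.10 in cKO (SD, n = 3), and its groups did not overlap, by a narrow gap between 96.43% in control replicate 2 and 96.44% in cKO replicate 3.

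Complex I, NADH dehydrogenase, takes 7 of the 13 protein-coding genes, and none of the 7 was called. The most abundant, mt-Nd1, measured 3827, 3393 and 4578 FPKM in control and 4525, 3823 and 3567 FPKM in cKO. The highest and the lowest of these 6 values were control replicates 3 and 2, so the cKO libraries lay within the control range. The log2 difference of mt-Nd1 was 0.02 (interval -0.29 to 0.32). The differences of mt-Nd2, mt-Nd4 and mt-Nd5 were 0.05 (-0.26 to 0.35), 0.03 (-0.18 to 0.25) and 0.13 (-0.10 to 0.36). Each of these 3 genes was highest in cKO replicate 1 and lowest in control replicate 2, and mt-Nd2 was nearly as high in control replicate 3 (1835 against 1838 FPKM). For mt-Nd3 the values were 37.0, 36.4 and 41.8 FPKM in control and 41.3, 44.8 and 41.1 FPKM in cKO. Only control replicate 3 reached the cKO range, and the log2 difference was 0.14 (-0.01 to 0.29), with an adjusted p of 0.15 (limma).

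The largest estimate among members belonged to mt-Nd4l, whose product is a small membrane subunit of complex I (chrM:9877-10173). It measured 68.1, 53.3 and 98.7 FPKM in control and 115, 77.7 and 105 FPKM in cKO, from 511 to 1552 reads a library. The cKO libraries were above the control libraries except control replicate 3, which exceeded cKO replicate 2. The log2 difference was 0.46 (-0.05 to 0.97), with an adjusted p of 0.18 (limma). Without control replicate 3 it was 0.69 with an adjusted p of 0.046, the only call among members in the 6 fits that left out a library. In the authors' deposited table its log2 fold change was 0.38 with an adjusted p of 0.41. The light-strand gene mt-Nd6, the only messenger RNA on that strand, measured 1074, 799 and 1213 FPKM in control and 1601, 1010.4 and 966 FPKM in cKO. One library, cKO replicate 1, was higher than the other 5, which lay between 799 and 1213 FPKM. The log2 difference of mt-Nd6 was 0.20 (-0.30 to 0.69). Whether reads of the opposite strand were counted in this row is not known.

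The messenger RNAs of complexes III and IV had estimates close to 0, with intervals about as wide as those of several other members. For mt-Cytb the values were 3607, 3165 and 3923 FPKM in control and 3839, 3424 and 3276 FPKM in cKO, with a log2 difference of -0.02 (-0.26 to 0.22). For mt-Co1 they were 6968, 6042 and 6954 FPKM in control and 7514, 6632 and 6541 FPKM in cKO, with a log2 difference of 0.05 (-0.18 to 0.28). Both genes were lowest in control replicate 2, and their groups overlapped. The other core subunits of complex IV, mt-Co2 and mt-Co3, ranged over 288 to 344 and 221 to 288 FPKM across the 6 libraries. Their log2 differences were -0.01 (-0.20 to 0.17) and 0.02 (-0.23 to 0.27). mt-Co1 alone held 39.5% ± 1.4 of mitochondrial reads in control and 39.8% ± 0.64 in cKO (SD, n = 3). Together with mt-Nd1, mt-Cytb and mt-Nd5 it held 79.5% and 79.6%.

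Complex V has 2 mitochondrially encoded subunits, which share a bicistronic messenger RNA. The values of mt-Atp8 were 19.1, 26.4 and 66.0 FPKM in control and 28.6, 21.1 and 23.9 FPKM in cKO. Control replicate 3 stood apart with 713 reads, and the other 5 libraries lay between 19.1 and 28.6 FPKM. The log2 difference was -0.40 with the widest interval among members, -1.27 to 0.48, and an adjusted p of 0.49 (limma). When libraries were scaled to their mitochondrial reads alone, limma gave it a log2 difference of -0.43 with an adjusted p of 0.0496, the single call among the 17 members, while that scaling called 4.89% of all genes tested. The standard error of mt-Atp8 was 0.14 under that scaling, against 0.38 in the main fit. The call is therefore weak evidence, since control replicate 3 stood apart. Without that library the main fit gave mt-Atp8 a log2 difference of 0.11. For mt-Atp6 the values were 211, 174 and 263 FPKM in control and 199, 172 and 200.3 FPKM in cKO. Control replicate 3 was the highest library here too, and control replicate 2 was as low as the lowest cKO library. The log2 difference of mt-Atp6 was -0.16 (-0.48 to 0.15).

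Among the transfer RNA rows, nearly all reads were in that of mt-Tp. This gene has 67 bases, fewer than a read of 150, and mature transfer RNAs carry no poly(A) tail. Whether its reads came from the transfer RNA or from longer transcripts that span it was not tested. mt-Tp measured 395, 291 and 362 FPKM in control and 385, 289.8 and 262 FPKM in cKO, from 512 to 1284 reads a library. Its log2 difference was -0.17 (-0.53 to 0.19), and the groups overlapped over most of their range. The other 5 transfer RNAs, mt-Tl1, mt-Tn, mt-Tc, mt-Ts1 and mt-Te, held 2 to 10 reads a library together. mt-Tc, for cysteine, had 2 to 5 reads in each library and passed the filter at a log2 difference of -0.31 (-0.74 to 0.11). The remaining 4 had 0 to 3 reads in each library and were not tested, since a difference was not detectable at this depth. The transfer RNA rows held 0.0904% ± 0.0077 of mitochondrial reads in control and 0.0782% ± 0.0086 in cKO (SD, n = 3), and these shares overlapped. The light-strand genes together held 2.12% ± 0.22 in control and 2.36% ± 0.46 in cKO (SD, n = 3), of which mt-Nd6 made up 2.03% and 2.28%. If strand was not used in counting, these rows also hold reads of the opposite strand, so this is a share of rows, not of light-strand RNA. Without cKO replicate 1 the light-strand difference was -0.03 percentage points.

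In 5 of the 6 libraries most members deviated from their group means in the same direction. Control replicate 1 was mixed, with 10 of 17 tested members above the group mean and a median log2 deviation of 0.05. In control replicate 2, 1 of 17 tested members was above its own group mean, and in control replicate 3, 15 of 17 were. In cKO replicate 1, 15 of 17 were above the mean, and in cKO replicates 2 and 3, 2 and 4 of 17 were. The median log2 deviation of the members from their group means ran from -0.20 in control replicate 2 to 0.15 in cKO replicate 1. Over all genes tested, the same median deviation stayed between -0.007 and 0.003. Scaling to the library total and centring on group means tend to keep that median near 0. It is therefore no measure of how far genes transcribed in shared precursors vary together.

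Several mitochondrial genes have near-identical copies in the nuclear genome, and their rows hold many reads. A run of 7 pseudogene rows lay side by side on the minus strand of chromosome 1, from Gm28439 at 24650616 to Gm29216 at 24655278 as the deposited table gives positions, whose build is not stated there. They matched, in order, mt-Nd4, mt-Nd4l, mt-Nd3, mt-Co3, mt-Atp6, mt-Co2 and mt-Co1. Over their aligned length, 5 of these copies had 0 mismatches, and Gm28438 and Gm29216 had 1 each. Read pairs had 150 bases at each end, so windows of 150 bases of each member were searched in the other annotated GENCODE M21 transcripts. Unchanged matches covered 99.8% of the windows of mt-Co3, 99.4% of those of mt-Co2 and of mt-Atp6, 98.0% of mt-Nd4l and 97.0% of mt-Nd3. They covered 59.2% of the windows of mt-Nd4 and 23.6% of those of mt-Co1. No window of mt-Rnr1, mt-Rnr2, mt-Nd1, mt-Nd2, mt-Nd5, mt-Nd6, mt-Cytb or mt-Atp8 had such a match, though only annotated transcripts were searched. For mt-Atp8 this leaves a gap. On chrM it starts between mt-Co2 and mt-Atp6. The chromosome 1 stretch between their copies, from the end of Gm10925 at 24653732 to the start of Gm28661 at 24653966, was not read. Whether that stretch holds a copy of mt-Atp8 was not tested.

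**Figure D4:**
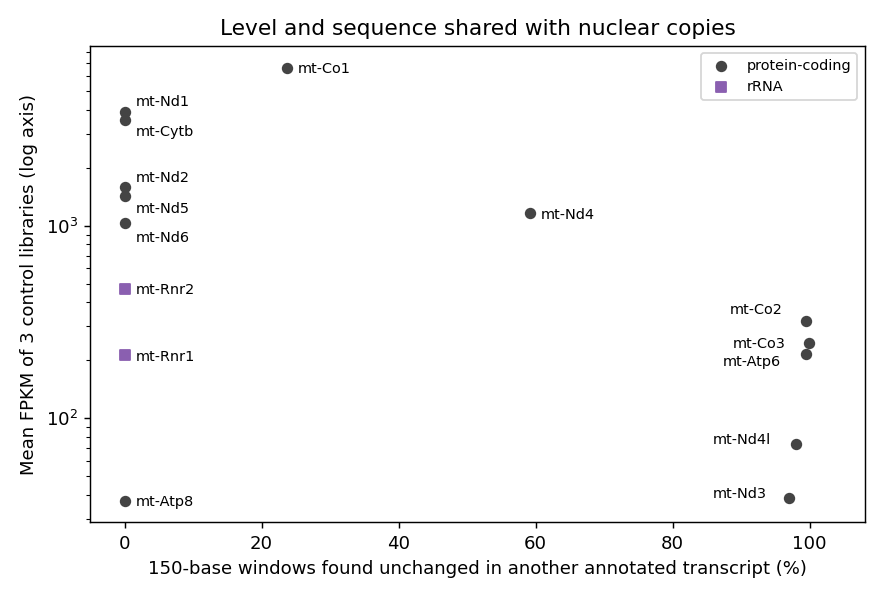
Mean FPKM of the 3 control libraries on a log axis against the percent of 150-base windows found unchanged in another annotated transcript, for the 15 protein-coding and ribosomal RNA members. At the right, mt-Co2, mt-Co3, mt-Atp6, mt-Nd4l and mt-Nd3 share 97.0% to 99.8% of their windows, while 8 members at the left share 0%.

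The copies were as high as or higher than the members they match wherever nearly all windows were shared. Gm10925 averaged 525 ± 18 FPKM in control and 564 ± 52 in cKO (SD, n = 3), beside 216 and 190.4 FPKM for mt-Atp6. Gm28661, identical to mt-Co2, averaged 385 and 391 FPKM, Gm28437, identical to mt-Co3, 331 and 315 FPKM, and Gm28438 67.8 and 66.9 FPKM beside 38.4 and 42.4 FPKM for mt-Nd3. The chromosome 2 copies, which carry more substitutions, were low. Gm13341, at 97.6% identity to mt-Co2, averaged 1.48 and 1.28 FPKM, Gm13340, at 97.6% identity to mt-Co1, averaged 4.15 and 6.06 FPKM, and Gm13339, at 96.7% identity to mt-Nd2, averaged 0.53 and 0.62 FPKM. Levels of the members with shared windows are therefore uncertain in the table. The 7 chromosome 1 rows held between 3.96% and 4.80% as many reads as the mitochondrial genes did in the same library.

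Unlike the members, 2 of the chromosome 1 copies were called higher in cKO, beside 13.4% of all genes tested called in that direction. Gm10222, identical to mt-Nd4l over its 294 bases, measured 92.5, 87.8 and 97.4 FPKM in control and 127, 107 and 113 FPKM in cKO, with no overlap. In the limma fit it differed by 0.32 ± 0.07 (log2, SE) at an adjusted p of 0.020, which became 0.070 without control replicate 2. Gm28439, identical to mt-Nd4 over 876 bases, measured 100.2, 82.7 and 97.1 FPKM in control and 129, 108.4 and 127 FPKM in cKO, again with no overlap. In the same limma fit it differed by 0.38 ± 0.09 (log2, SE) at an adjusted p of 0.026. That p was 0.068 without control replicate 2, 0.062 without cKO replicate 1 and 0.076 without cKO replicate 3. Whether a call in a copy and none in its member are different results was not tested. With the reads of the copies added to their members, an alternative chosen after seeing the data, 0 members were called. mt-Nd4l then averaged 165 ± 28 FPKM in control and 214 ± 29 in cKO (SD, n = 3), which is 0.38 ± 0.13 higher on the log2 scale (SE, adjusted p 0.081, limma). The added reads raised the control level of mt-Atp6 3.42-fold, mt-Nd3 2.75-fold, mt-Co3 2.34-fold, mt-Nd4l 2.25-fold and mt-Co2 2.21-fold, and those of mt-Nd4 and mt-Co1 1.05-fold and 1.01-fold. With the copies in place, mt-Atp6 averaged 738 FPKM in control and 751 in cKO, and its log2 difference was 0.02 in place of -0.16.

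Nuclear genes encode the remaining subunits of the complexes that the members belong to. Of 72 such genes, 15 fell in cKO and 0 rose, beside 5.74% and 13.4% of all genes tested, with a median log2 difference of -0.18. Leaving out 1 library moved the count of 15 to between 3 and 22. It was 3 without control replicate 2 or without cKO replicate 2, and 6 without control replicate 3 or without cKO replicate 3. Atp5c1, the gamma subunit of the ATP synthase, measured 151 FPKM in control and 129 in cKO (adjusted p 0.011, limma), and Ndufb9, an accessory subunit of complex I, 22.1 and 17.6 FPKM (0.013). Both calls held in all 6 fits that left out a library. Cox6c, of complex IV, measured 37.6 and 31.1 FPKM (adjusted p 0.015, limma), which became 0.052 without control replicate 2. The split of calls over all genes depended on the scaling: 1813 were higher and 777 lower, and these were 2448 and 549 with TPM scaling, 1083 and 823 with quantile normalization, and 1911 and 1660 with voom. Under these 3 settings 12, 9 and 45 of the 72 nuclear subunit genes were called lower and 0 higher.

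The mitochondrially and nuclear-encoded parts of a complex were also set side by side as sums of FPKM. For complex I the cKO mean was 105% of control for the 7 mitochondrial genes and 87.4% for the 36 nuclear genes. For complex III these were 98.5% and 88.9%, for complex IV 103% and 83.0%, and for complex V 84.9% and 90.9%. The ratio of mitochondrial to nuclear sums for complex I was 6.16, 4.79 and 6.25 in control and 7.69, 6.45 and 6.40 in cKO. For complex IV it was 5.45, 4.35 and 4.71 in control and 6.10, 5.79 and 6.09 in cKO. In these 2 complexes the groups did not overlap, though for complex I the gap between control replicate 3 and cKO replicate 3 was small. Such separation was common, since 40.5% of all single genes tested also had groups that did not overlap. For complex III the ratio was 6.37, 4.89 and 6.12 in control and 7.23, 6.11 and 5.88 in cKO, and for complex V it was 0.169, 0.138 and 0.232 and 0.180, 0.150 and 0.174. The groups overlapped in both. Complexes I, IV and V include members that share windows with nuclear copies (in complex I mt-Nd3, mt-Nd4l and mt-Nd4), and the copies' reads are not in these sums.

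**Figure D5:**
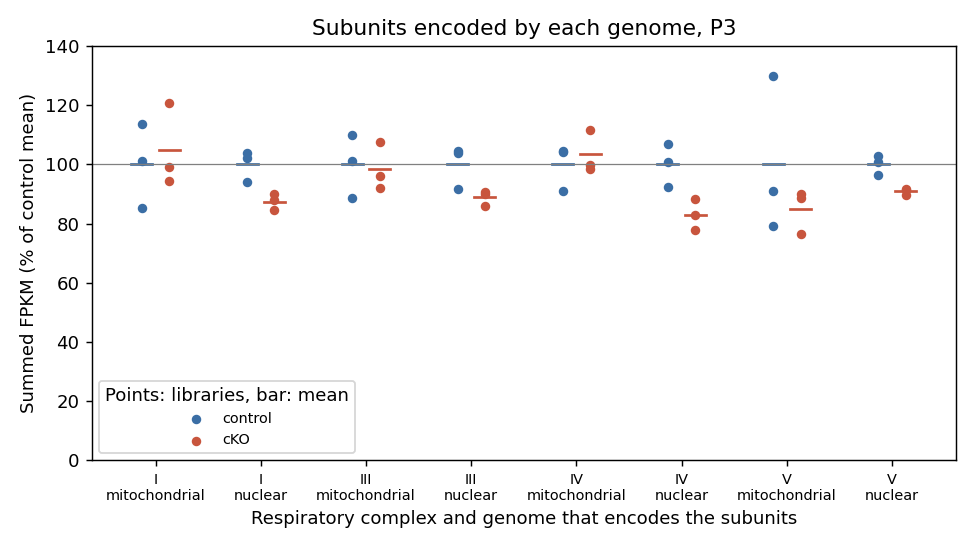
Summed FPKM of the mitochondrially and the nuclear-encoded subunits of each complex, as percent of the control mean, with a point for each library and a bar at the group mean. The mitochondrial sums overlap between groups in each complex, and the nuclear sums of the cKO libraries lie below those of the control libraries. Over all single genes tested, 40.5% had groups that did not overlap.

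The nuclear genes that maintain and express the mitochondrial genome gave few calls. Of 260 tested genes in 11 lists, which include the 72 subunit genes, 11 rose and 20 fell in cKO, with a median log2 difference of -0.04. In either direction 31 were called, beside 19.1% of all genes tested. Without the subunit genes, at most 4 members of any list were called in 1 direction. None of 11 mitochondrial transcription genes was called. Polrmt, the mitochondrial RNA polymerase, had a log2 difference of 0.03 (adjusted p 0.80, limma), and Tfam, which packages mitochondrial DNA and starts its transcription, had 0.07 (0.45). Mrpl12, the most abundant of that list, measured 40.7 and 39.3 FPKM. Among 19 genes of mitochondrial DNA replication and maintenance 3 rose and none fell, beside 13.4% of all genes tested called higher and 5.74% called lower. The count of 3 is thus near the share over all genes. It was 1 without cKO replicate 2 and 4 without cKO replicate 1. Top3a, a topoisomerase, rose from 4.18 to 5.47 FPKM (adjusted p 0.0081, limma) and kept its call in all 6 fits that left out a library. Rnaseh1, which removes RNA primers, rose from 5.47 to 6.76 FPKM (adjusted p 0.011, limma), with 0.052 without cKO replicate 2, and Slc25a36, a pyrimidine nucleotide carrier, rose from 8.32 to 9.78 FPKM. Polg, the catalytic subunit of the replicative polymerase, and Twnk, the helicase, had log2 differences of 0.07 and 0.02 and were not called.

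Of 22 genes listed under RNA processing and stability, only Ythdc2 rose, from 3.04 to 3.79 FPKM. Nothing in these data places its product in mitochondria, so this call is not one of a known mitochondrial factor. Lrpprc, which stabilises mitochondrial messenger RNAs, had a log2 difference of -0.01 (adjusted p 0.88, limma). Of 24 genes that modify transfer and ribosomal RNA, Trub2 rose from 5.70 to 6.60 FPKM, Mettl17 fell from 9.95 to 8.52 FPKM, and Cdk5rap1 fell from 3.45 to 2.69 FPKM. None of 16 translation factors was called by limma, and Tufm, the elongation factor and the most abundant of them, measured 41.1 and 36.7 FPKM. With voom, Tufm was called lower (adjusted p 0.013), the only call in that list. Of 19 aminoacyl-tRNA synthetases only Mars2 rose, from 1.86 to 2.40 FPKM. Among 11 regulators of mitochondrial biogenesis 4 rose and none fell, beside 13.4% of all genes tested called higher and 5.74% called lower. The count of 4 was 3 without control replicate 1 or without cKO replicate 1, 2 without control replicate 2, and 1 without control replicate 3, without cKO replicate 2 or without cKO replicate 3. It was also 1 with quantile normalization and with no filter on low values. Gabpa, a subunit of a transcription factor for many nuclear genes of mitochondria, rose from 15.3 to 18.8 FPKM (adjusted p 0.0058, limma) and kept its call in all 6 fits that left out a library. Sirt1 rose from 7.11 to 8.55 FPKM and Prkaa1 from 5.76 to 7.32 FPKM, while Nrf1 had a log2 difference of -0.09 (adjusted p 0.24, limma). Of 43 genes for insertion and assembly of mitochondrially encoded subunits 1 rose and 3 fell, the latter being Coa3 (53.7 to 47.8 FPKM), Cox14 (16.9 to 14.1 FPKM) and Ndufaf5 (11.4 to 9.92 FPKM). None of 14 genes of mitochondrial mass and import and none of 10 of fusion and fission was called by limma. With voom, 1 of the former was called higher and 4 lower, beside 26.4% of all genes tested called in either direction. In the latter list voom called 1 gene lower, Fis1 (adjusted p 0.015). Vdac1, an abundant outer membrane channel, measured 118 FPKM in both groups, and Fis1, of fission, 62.2 and 56.3 FPKM. Of the 17 called nuclear genes named from these lists, 4 kept the call in every fit that left out a library: Atp5c1, Gabpa, Ndufb9 and Top3a. Rnaseh1 and Cox6c lost it in 1 fit each, and each of the other 11 lost it without control replicate 2, without cKO replicate 2 and without cKO replicate 3, and adjusted p-values over their fits reached 0.150 (limma).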

How the data were processed

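RNA-seq of granule cell progenitors was compared at P3, with 3 control and 3 cKO libraries. Paired-end libraries with a dUTP-marked strand were made from poly(A) RNA, per the labels' protocols. The build mm10 and the tools HISAT2 2.2.1, StringTie 2.1.6, cutadapt 1.9, edgeR and DESeq2 are listed in the submitters' processing notes, without role or order. The annotation, the filters and the strand setting were not given in the sources used here. The authors deposited 1 table of FPKM per library, with a gene length in bases. It also holds their own comparison: per the file headers, a mean signal per gene, a log2 fold change with its error, a test score and p-values. The cKO columns carry the prefix ZM, which the labels do not explain; they were assigned as the only other P3 group.

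FPKM times length gave whole reads within 0.02 for 100% of values, and shares of reads were computed from these. Members, lists and tests were chosen with earlier results of these data known. The fit used limma 3.58.1 in R 4.3.3 on log2(FPKM + 1) with an intensity trend, for rows averaging 1 FPKM or more, with Benjamini-Hochberg adjustment over all 13538 and a call at an adjusted p under 0.05. Fold changes on this scale understate those of low genes. Exact permutation tests of 3 against 3 libraries cannot go below 0.1. In simulated reads for this comparison with 13409 genes tested, the fit recovered 36% of genes changed 1.25-fold, 86% at 1.5-fold and 94% at 2-fold. It also called 17 genes that had not been changed. The simulation gave every gene the same set spread between libraries, which was not taken from these libraries. These rates therefore do not give the power for the members, whose median SD over control libraries was 0.22 (log2). Named genes are all members, Znhit3 and, from each list, up to 3 called genes with the smallest p or, with none called, the most abundant; Polrmt, Tfam, Polg, Twnk, Lrpprc, Nrf1 and the uncalled copies were added after their values were seen. Of 328 list entries, 323 matched a table symbol and 2 a GENCODE symbol. The entry Gm9825 matched a row named Rnps1-ps that aligned to no mitochondrial gene and is not described. Other lists of cell type markers were pericytes (4 of 4 tested rose), microglia (4 of 4), Purkinje cells (2 of 2), oligodendrocyte lineage (3 of 4), astroglia (3 of 4) and erythroid cells (4 of 5). Pairs of libraries within a group differed beyond counting noise (chi-square per degree of freedom 4.38 to 9.71), so none was a duplicate. Copies were aligned with Biopython 1.88. Alternatives were other pseudocounts, filters, scalings and weights, voom, a replicate block and each library left out; adding the reads of the copies was chosen after seeing the data.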

Additional observations from a re-analysis of the deposited data

How the results depend on the processing

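With 3 libraries a group, the 95% intervals of uncalled members allow changes of up to 1.96-fold for mt-Nd4l and 1.61-fold for mt-Nd6. They reach down to 0.41 of control for mt-Atp8. These folds are of FPKM + 1. For mt-Tc, with 2 to 5 reads in each library, the lower bound of 0.60 on that scale does not limit the fold in FPKM. Its log2 difference was -0.51 with a pseudocount of 0.1. The 4 transfer RNAs with 0 to 3 reads allow no comparison. No member was called under 15 of 18 other settings. The 3 exceptions gave 1 call each: quantile normalization (mt-Nd4, log2 0.22, adjusted p 0.043, limma), scaling to mitochondrial reads alone (mt-Atp8) and leaving out control replicate 3 (mt-Nd4l). Leaving out each library gave 0 to 1 members called. The cause was not tested. Over such fits the difference in the mitochondrial share of reads ran from -0.0799 to 0.182 percentage points and that in the light-strand share from -0.0250 to 0.382. Those in the ribosomal and transfer RNA shares kept their sign, at -0.320 to -0.210 and -0.0168 to -0.00769 percentage points, and Znhit3 stayed between -0.96 and -0.89 on the log2 scale.

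Of all genes, 2590 were called, and this became 1271 with no filter on low values (more genes tested) and 1193 to 2170 with 1 library left out (fewer samples). Of the pathway genes 31 were called, against 6 with no filter, 17 with quantile normalization, 55 with array weights, 73 with voom and 5 to 30 with 1 library left out. Both copies, Gm10222 and Gm28439, lost their calls with no filter. With the replicate number as a block, 1542 genes, 11 pathway genes (1 of them a biogenesis regulator) and 0 members were called. Deviations of same-numbered libraries from their group means correlated at -0.02, 0.04 and -0.10 across genes, so the numbers were not taken to pair the libraries.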
